A study of Mus musculus with 8 samples.

Results

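The transforming growth factor beta (TGF-β) pathway was examined through 10 genes chosen by name: the ligand gene Tgfb1, the receptor genes Tgfbr1 and Tgfbr2, the signal-carrying Smad2, Smad3 and Smad4, the inhibitory Smad7, the corepressor genes Skil and Tgif1, and the target gene Tgfbi. All 10 were among the 55487 genes listed, and 8 of them reached the mean of 1 TPM that was required for testing. RNA had been sequenced from J774A.1 cells, a mouse macrophage line, after 24 h with LPS (1 μg/mL), a glycolipid of bacterial outer membranes that triggers Toll-like receptor signaling, or with the same dose of LPS together with UDCA, a secondary bile acid, at 1 mM. There were 4 libraries in each group, and every culture received LPS, so all values compare levels under LPS in 1 cell line. The labels do not say whether the libraries of a group came from separate cultures, and p-values then measure only the spread between these libraries.

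TGF-β1 is secreted in a latent form, held inside its own propeptide, and acts only once it is released. The active ligand binds TGFBR2, which phosphorylates TGFBR1, and TGFBR1 in turn phosphorylates SMAD2 and SMAD3, which join SMAD4 and enter the nucleus. SMAD7 blocks the receptor and is itself a target of the pathway, whereas SKIL (also called SnoN) and TGIF1 repress transcription at SMAD-bound genes. In macrophages, TGF-β1 is known to restrain inflammatory activation and to be released when dying cells are engulfed.

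The unit of the table is TPM, in which reads are divided by gene length and scaled to a fixed library total, so levels of different genes can be set side by side. The TPM values summed to 973190 to 977485 in the LPS libraries and to 958918 to 962737 in the LPS + UDCA libraries. The totals as listed were thus not equal, and every LPS + UDCA total was below every LPS total. TPM keeps no record of read number, so the depth is unknown. Macrophage marker genes summed to 4240 to 4470 TPM with LPS and to 2080 to 2340 TPM with LPS + UDCA. Of the 10, 9 were tested, with 4 higher and 5 lower with UDCA at an FDR under 0.05. Of all genes tested, 40.2% were higher and 32.3% lower by this rule. The sum weighs abundant markers most, and Lyz2 alone fell from 1990 ± 93.8 to 436 ± 20.0 TPM. Among the markers that rose were Adgre1, from 46.6 to 114 TPM, and Fcgr1, from 37.7 to 107 TPM. The marker Mertk was listed at 0 in every library, and the part of these marker changes in the results below was not tested. The 8 fibroblast, 5 epithelial and 4 T cell markers stayed at or below 0.1 TPM in every library, and 4 endothelial markers stayed at or below 0.95 TPM.

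The 250 bases before the start sites of the ligand gene, both receptor genes and Smad3 are shown, since these changed and had a window in the reference table, in which no window was found for Skil (RefSeq, GRCm38.p6, 5′ to 3′ on the strand of the gene). Capitals mark the GC box (GGGCGG), at which SP1-type factors bind, and the core SMAD element (CAGAC), each on either strand. These regions lie at chr7:25686752-25687001 (plus strand, Tgfb1), chr9:63757995-63758244 (minus strand, Smad3), chr4:47352972-47353221 (plus strand, the first of the listed starts of Tgfbr1) and chr9:116175364-116175613 (minus strand, Tgfbr2).
Tgfb1: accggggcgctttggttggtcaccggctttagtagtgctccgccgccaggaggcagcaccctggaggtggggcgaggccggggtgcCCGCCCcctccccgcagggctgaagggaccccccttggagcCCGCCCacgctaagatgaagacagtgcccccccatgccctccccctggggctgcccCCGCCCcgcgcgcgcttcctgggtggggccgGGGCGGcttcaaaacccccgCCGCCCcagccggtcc
Smad3: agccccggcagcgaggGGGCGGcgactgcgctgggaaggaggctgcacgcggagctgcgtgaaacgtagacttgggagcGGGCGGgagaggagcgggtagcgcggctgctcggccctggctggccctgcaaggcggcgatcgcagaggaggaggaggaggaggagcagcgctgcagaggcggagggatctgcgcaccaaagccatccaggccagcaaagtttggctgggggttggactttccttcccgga
Tgfbr1: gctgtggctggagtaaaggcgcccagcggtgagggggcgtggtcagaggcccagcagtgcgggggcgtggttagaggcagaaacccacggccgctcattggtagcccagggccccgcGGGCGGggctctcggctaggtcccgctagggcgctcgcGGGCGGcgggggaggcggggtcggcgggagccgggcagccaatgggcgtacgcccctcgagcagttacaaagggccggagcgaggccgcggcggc
Tgfbr2: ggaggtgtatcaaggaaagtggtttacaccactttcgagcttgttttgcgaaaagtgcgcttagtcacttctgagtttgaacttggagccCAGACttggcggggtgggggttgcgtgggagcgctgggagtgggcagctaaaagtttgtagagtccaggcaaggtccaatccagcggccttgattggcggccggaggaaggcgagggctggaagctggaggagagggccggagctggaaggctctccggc

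The Tgfb1 window held 5 GC boxes and 75.2% G and C, and those shown for Smad3 and Tgfbr1 held 2 GC boxes each, with 69.2% and 74.8% G and C. Among the windows shown, the core SMAD element was present once, in that of Tgfbr2, in which no GC box was found. Another listed window of Tgfbr1 (chr4:47385966-47386215, not shown) held 1 core SMAD element, no GC box and 52.8% G and C. Of 32851 windows of the same length in the RefSeq table, 32.7% held a GC box and 42.2% the core SMAD element, and their median G and C content was 52.4%. No window of these 4 genes held the AP-1 element TGANTCA, which 6.75% of all windows held. The Tgfbi window (chr13:56609336-56609585) held 2 core SMAD elements and 1 GC box. Of the 10 genes, 6 had a window in the table. These letters are a description of the windows and do not show binding.

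Tgfb1, on chromosome 7 from 25687002 to 25705077 of GRCm38, was the most abundant of the 10 genes with LPS and changed most. Its LPS libraries had 206.78, 194.62, 185.90 and 193.52 TPM in replicates 1 to 4, and its LPS + UDCA libraries had 65.54, 68.79, 50 and 53.30 TPM. Every library with UDCA lay far below every library without it. The group means were 195 ± 8.64 and 59.4 ± 9.15 TPM (SD, n = 4), a ratio of 0.304. On the log2 scale it differed by -1.71 (standard error 0.098, limma adjusted p = 4.7e-07 over the 11796 genes tested). With each library left out in turn it stayed between -1.78 and -1.63. In RNA from whole cultures, a lower level in every cell and fewer cells that express the gene cannot be told apart.

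The receptor genes moved in opposite directions. Tgfbr2 (chromosome 9, 116084293 to 116175360), the receptor that binds the ligand first, had 15.31, 15.10, 13.74 and 13.78 TPM with LPS and 9.05, 11.29, 8.43 and 8.16 TPM with LPS + UDCA. The groups did not overlap, and the mean fell from 14.5 ± 0.839 to 9.23 ± 1.42 TPM (log2 difference -0.61, standard error 0.097, limma adjusted p = 0.00037). Tgfbr1 (chromosome 4, 47353222 to 47414931), the kinase that phosphorylates SMAD2 and SMAD3, was listed at 1.47, 0.90, 0.85 and 1.17 TPM with LPS and at 2.11, 2.68, 2.80 and 3.08 TPM with LPS + UDCA. Tgfbr1 was the scarcer receptor in every library, and it rose from 1.10 ± 0.285 to 2.67 ± 0.408 TPM, a ratio of 2.43. Its log2 difference of 0.81 (standard error 0.14, limma adjusted p = 0.00059) is smaller than that ratio because 1 TPM was added before the logarithm.

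Among the signal-carrying SMAD genes, Smad3 fell while Smad2 and Smad4 rose. Smad3 (chromosome 9, 63646767 to 63757994) had 5.52, 5.34, 5.54 and 5.54 TPM with LPS and 1.75, 3.05, 2.32 and 2.53 TPM with LPS + UDCA. Its LPS libraries were nearly alike, and each was above all libraries with UDCA (5.48 ± 0.0971 against 2.41 ± 0.538 TPM, a ratio of 0.44, log2 difference -0.94, limma adjusted p = 7.9e-05). Smad2, whose product also receives the signal from TGFBR1, had 23.22, 20.97, 23.46 and 23.23 TPM with LPS and 33.60, 30.77, 33.73 and 30.74 TPM with LPS + UDCA. The rise, from 22.7 ± 1.17 to 32.2 ± 1.68 TPM, was smaller than the fall of Smad3 on the log2 scale (log2 difference 0.49, limma adjusted p = 4.6e-05). Smad4, the common partner of both, had 26.00, 25.35, 22.91 and 22.03 TPM with LPS and 32.75, 33.47, 39.72 and 35.78 TPM with LPS + UDCA. It rose from 24.1 ± 1.90 to 35.4 ± 3.14 TPM (log2 difference 0.54, limma adjusted p = 0.00017), and the groups of both Smad2 and Smad4 were fully apart.

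The inhibitory and repressing genes differed among themselves. Skil (chromosome 3, 31095058 to 31122577) had 8.78, 5.04, 5.41 and 5.95 TPM with LPS and 12.49, 11.13, 12.54 and 17.79 TPM with LPS + UDCA. LPS replicate 1 was the highest of its group and LPS + UDCA replicate 4 the highest of all, without overlap between the groups (6.29 ± 1.70 against 13.5 ± 2.94 TPM, a ratio of 2.14). The log2 difference was 0.9959 (standard error 0.18, limma adjusted p = 0.00072), just under a 2-fold change, and ran from 0.86 to 1.15 with 1 library left out. Tgif1 (chromosome 17, 70844205 to 70853546) stood well above Skil, with 77.47, 72.82, 73.42 and 81.60 TPM with LPS and 76.07, 82.07, 80.63 and 82.11 TPM with LPS + UDCA. Its groups overlapped, and its log2 difference of 0.07 did not pass the test (standard error 0.048, limma adjusted p = 0.2). This value was -0.04 with median-of-ratios scaling, and 0.14 (adjusted p = 0.02) with quantile normalization, so no direction is given for Tgif1.

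Smad7 and Tgfbi stayed under the minimum for testing. Smad7, the inhibitory SMAD, was listed at 0.99, 1.91, 0.46 and 0.83 TPM with LPS and at 0.72, 1.04, 0.46 and 1.21 TPM with LPS + UDCA. The lowest value, 0.46 TPM, occurred in both groups, and the means of 1.05 ± 0.616 and 0.858 ± 0.334 TPM differed by less than the spread between replicates (exact permutation test, 2-sided p = 0.69). Tgfbi, which encodes a secreted matrix protein named for its induction by TGF-β, read 0 in each of the 4 LPS libraries, 0.02 TPM in LPS + UDCA replicate 1, 0.15 TPM in replicate 2 and 0 in replicates 3 and 4. At these values a difference was not detectable.

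**Figure D1:**
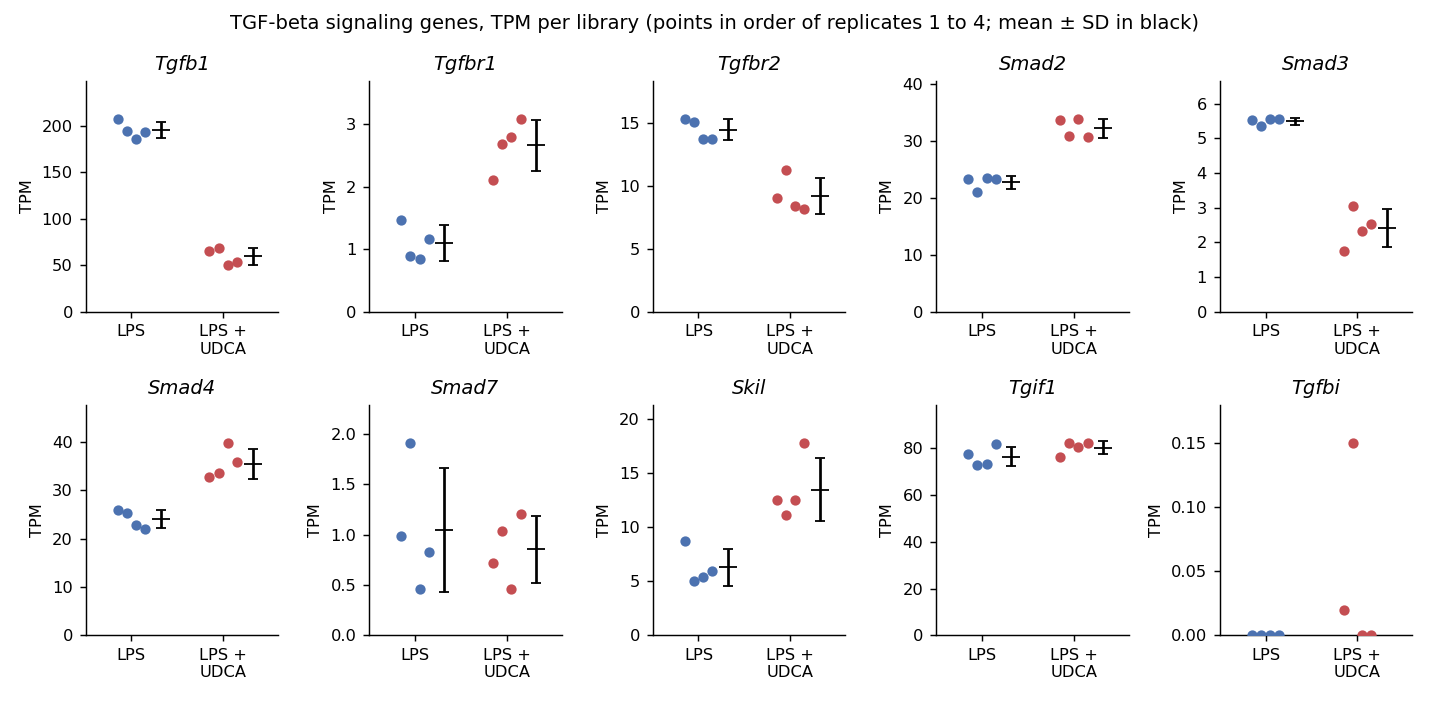
TPM of the 10 TGF-β signaling genes in each library (vertical axis, TPM from 0, a separate scale for each gene), with LPS in blue and LPS + UDCA in red; black bars give the mean ± SD of 4 libraries (none for Tgfbi). Tgfb1, Tgfbr2 and Smad3 are lower and Tgfbr1, Smad2, Smad4 and Skil higher in all 4 libraries with UDCA, while Smad7, Tgif1 and Tgfbi overlap.

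Of the 8 genes tested, 4 were higher (Tgfbr1, Smad2, Smad4 and Skil) and 3 lower (Tgfb1, Tgfbr2 and Smad3) at an FDR under 0.05 from limma, while Tgif1 did not pass. Each of the 8 had a mean of at least 1 TPM in both groups. Over all genes tested, 40.2% were higher and 32.3% lower by the same rule, so a change that passed this test was common across the table and is not particular to these genes. For 7 of the 8 genes the groups stood apart, against 66.8% of all genes tested. Groups that stand apart always give the smallest p that an exact permutation test of 4 against 4 libraries allows (2-sided p = 0.029). This p for the 7 genes therefore restates that their groups did not overlap. When a change of at least 2-fold was also required, Tgfb1 alone passed, where 8.44% of all genes were lower and 8.71% higher. The TPM ratios of Tgfbr1 (2.43), Skil (2.14) and Smad3 (2.27, LPS over LPS + UDCA) also exceeded 2, and this count depended on the pseudocount. With 0.1 TPM in place of 1 TPM, 2 genes were higher (Tgfbr1 and Skil) and 2 lower (Tgfb1 and Smad3). Skil also passed without LPS replicate 1 or without LPS + UDCA replicate 1, 2 or 3, and Smad3 without LPS + UDCA replicate 2. With 1 TPM and all libraries, none of the 8 was higher by both thresholds in limma, and 4 were higher at an unadjusted p under 0.05. The median log2 fold change was 0.28 for the 8 genes and 0.08 for all genes tested.

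**Figure D2:**
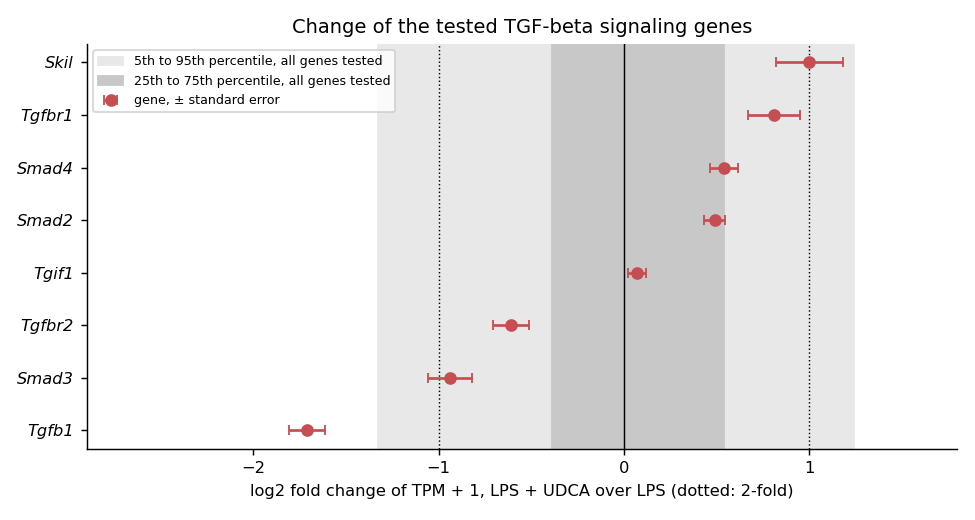
Log2 fold change of TPM + 1, LPS + UDCA over LPS (horizontal axis), for the 8 genes tested, with standard errors; dotted lines mark a 2-fold change and grey bands the 5th to 95th and 25th to 75th percentiles of all 11796 genes tested. Tgfb1, at -1.71, lies below the 5th percentile of -1.33, and Skil, the highest, lies under the 95th percentile of 1.24.

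These opposite movements changed the order of the levels. With LPS, Tgfb1 was followed by Tgif1, then by Smad4 and Smad2, whose libraries overlapped, by Tgfbr2, by Skil and Smad3, which also overlapped, and by Tgfbr1 and Smad7, which overlapped at the bottom above Tgfbi. With LPS + UDCA, Tgif1 stood above Tgfb1, since its lowest library (76.07 TPM) was above the highest of Tgfb1 (68.79 TPM). Smad4 and Smad2 overlapped again, as did Skil and Tgfbr2, and Tgfbr1 (2.11 to 3.08 TPM) now overlapped Smad3 (1.75 to 3.05 TPM), which had been well above it with LPS. LPS + UDCA replicate 2 had the highest level of its group for all 3 genes that fell.

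Ratios of TPM within a library are given as descriptions, without a test. The Tgfbr1 to Tgfbr2 ratio was 0.0960, 0.0596, 0.0619 and 0.0849 in the LPS libraries and 0.233, 0.237, 0.332 and 0.377 in the LPS + UDCA libraries. The receptors were therefore less unequal with UDCA, although Tgfbr2 remained the more abundant in all 8 libraries. The Smad3 to Smad2 ratio was 0.238, 0.255, 0.236 and 0.238 with LPS and 0.0521, 0.0991, 0.0688 and 0.0823 with LPS + UDCA, and these groups were also apart. Because Smad2 was the larger part, the sum of Smad2 and Smad3 was higher with UDCA (34.6 ± 1.30 TPM, against 28.2 ± 1.27 TPM with LPS). The corepressors Skil and Tgif1 together, relative to Smad2, Smad3 and Smad4, had a ratio of 1.58 ± 0.0994 with LPS and of 1.34 ± 0.0952 with LPS + UDCA. The ratio of Smad7 to Smad2 and Smad3 overlapped between the groups (0.0379 ± 0.0244 and 0.0251 ± 0.0105).

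**Figure D3:**
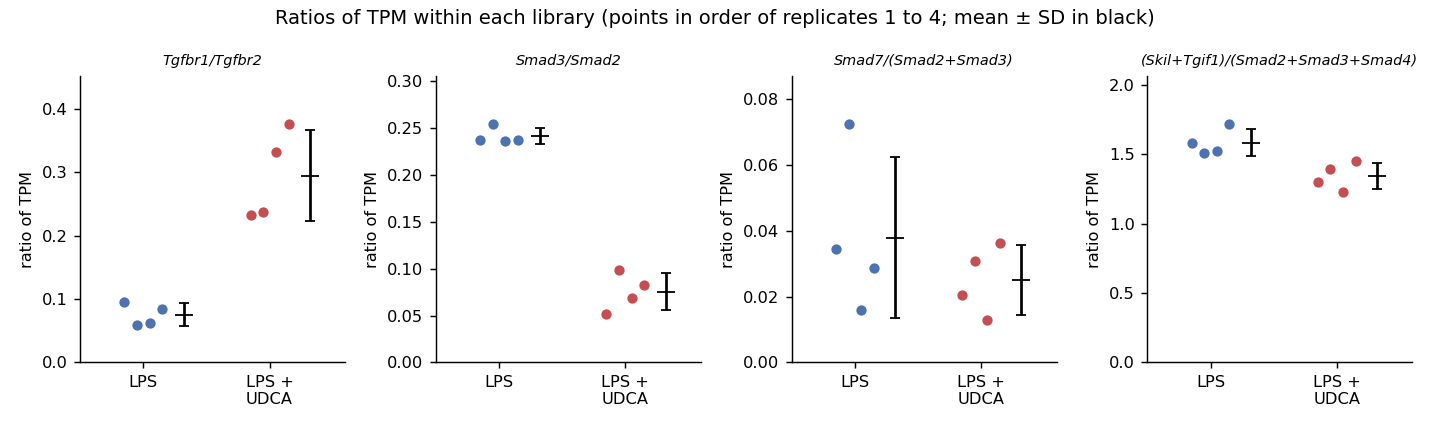
Ratios of TPM within each library (vertical axis, from 0) for receptors, receptor-activated SMAD genes, the inhibitory Smad7 and the corepressors, with LPS in blue and LPS + UDCA in red; black bars give the mean ± SD of 4 libraries. The Tgfbr1 to Tgfbr2 ratio is higher and the Smad3 to Smad2 ratio lower in all 4 libraries with UDCA, while the Smad7 ratio overlaps.

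Of 83 other genes of the pathway, 50 were tested, and 23 of them were higher and 15 lower at an FDR under 0.05, beside the 40.2% and 32.3% of all genes tested. By both thresholds 4 were higher and 7 lower, beside 8.71% higher and 8.44% lower of all genes tested. Of 11 other ligand genes, Gdf15 alone was tested and did not differ beyond its error (4.41 ± 0.224 and 4.56 ± 1.25 TPM, log2 difference 0.02, limma adjusted p = 0.92). Tgfb2 and Tgfb3, which encode the other TGF-β isoforms, had at most 0.08 and 0.11 TPM in any library, so that Tgfb1 made up nearly all TGF-β ligand RNA in both groups.

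Of 14 genes for the storage and release of latent TGF-β, 4 were tested. Among these 1 was higher and 2 lower, beside 40.2% higher and 32.3% lower of all genes tested. Nrros, which encodes a protein that tethers latent TGF-β1 on the surface of macrophages, had 31.75, 35.01, 34.58 and 33.65 TPM with LPS and 9.27, 14.37, 9.47 and 9.56 TPM with LPS + UDCA (log2 difference -1.60, limma adjusted p = 3.2e-06). Tgfb1 and Nrros fell by similar factors, and their ratio within a library was 5.80 ± 0.499 with LPS and 5.68 ± 0.983 with LPS + UDCA. Furin, which encodes a protease that cuts the TGF-β1 precursor, fell from 41.3 ± 2.36 to 22.5 ± 1.32 TPM, and the integrin gene Itgb5 rose from 18.3 ± 0.694 to 28.7 ± 1.73 TPM. Lrrc32, which encodes the tether used by regulatory T cells, did not exceed 0.04 TPM, and Itgb6 and Itgb8, which encode the subunits of TGF-β-activating integrins, were listed at 0 in every library.

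Of 12 other receptor genes, 8 were tested, 3 were higher and 1 lower, beside 40.2% higher and 32.3% lower of all genes tested. The lower one was Eng, a co-receptor for TGF-β family ligands, which fell from 10.1 ± 0.819 to 3.48 ± 0.237 TPM (log2 difference -1.31, limma adjusted p = 6.9e-07). Of 18 other SMAD genes and SMAD regulators, 17 were tested, 10 were higher and 2 lower, beside the same shares of all genes. Tgif2, which encodes the close relative of TGIF1, fell from 2.83 ± 0.335 to 0.907 ± 0.188 TPM, and Usp9x, which encodes a deubiquitinase that acts on SMAD4, rose from 9.10 ± 3.23 to 19.6 ± 2.50 TPM. All 6 genes of the TAK1 arm, through which TGF-β receptors signal without SMADs and which is shared with Toll-like receptors, passed the test, 5 upward and 1 downward, beside the same 40.2% and 32.3% of all genes. The gene that fell was Map3k7, which encodes TAK1 itself (9.73 ± 0.946 against 8.39 ± 0.339 TPM, log2 difference -0.19, limma adjusted p = 0.046). Traf6 rose from 4.25 ± 0.458 to 11.4 ± 0.73 TPM, and Tab2 from 12.6 ± 0.856 to 28.5 ± 1.93 TPM.

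Of 22 genes known as TGF-β or SMAD targets in various cell types, 14 were tested, 4 were higher and 9 lower, beside 40.2% higher and 32.3% lower of all genes tested, and the median log2 fold change was -0.66, against 0.08 for all. The list holds genes that TGF-β induces and genes that it represses, such as Myc in epithelial cells, and other signals also drive many of them, so these counts give no direction for the pathway. Id1, an inhibitor of basic helix-loop-helix factors, fell from 25.4 ± 2.27 to 2.76 ± 0.789 TPM (log2 difference -2.83, limma adjusted p = 3.3e-07). Cx3cr1, a chemokine receptor gene, fell from 3.85 ± 0.674 to 0.38 ± 0.0523 TPM, Pdgfb, which encodes a growth factor, from 92.3 ± 5.22 to 30.7 ± 1.64 TPM, and Myc from 69.4 ± 2.02 to 28.1 ± 1.29 TPM. Vegfa, which encodes a vascular growth factor, rose from 29.1 ± 2.07 to 66.3 ± 4.88 TPM. Ccn2 (Ctgf) and Cdkn2b, both standard targets in other cells, were listed at 0 in every library.

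**Figure D4:**
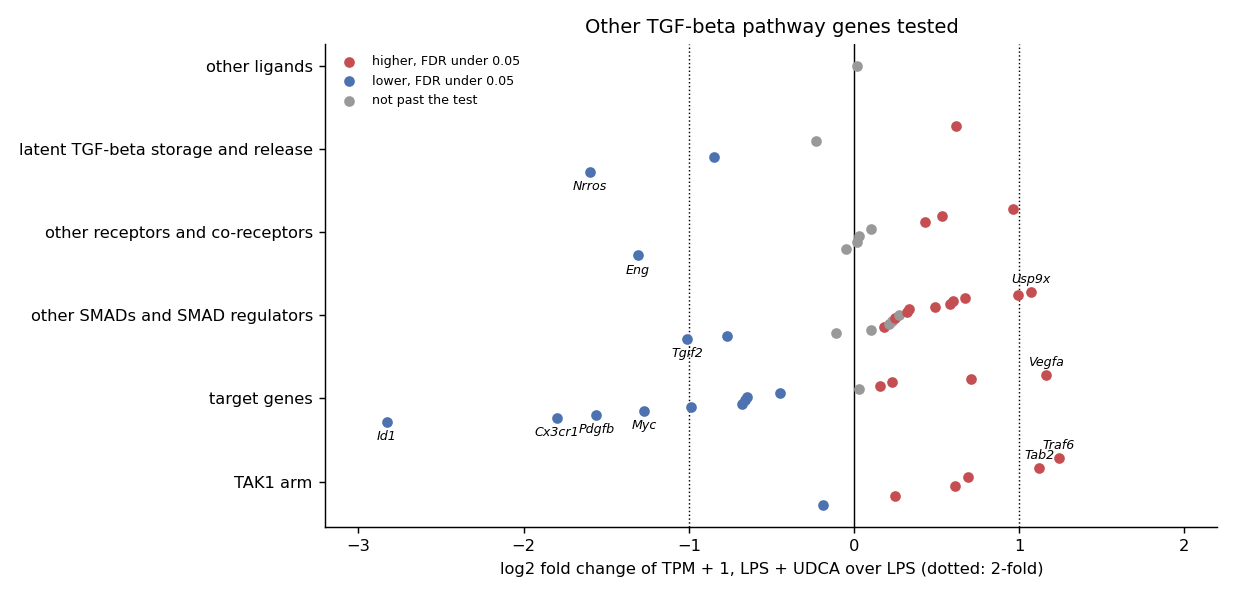
Log2 fold change of TPM + 1, LPS + UDCA over LPS (horizontal axis), for the 50 other pathway genes tested, grouped by list; each point is a gene, coloured by the limma test, and genes past an FDR of 0.05 and a 2-fold change (dotted lines) are named. Id1 lies lowest at -2.83 and Traf6 highest at 1.24.

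Transcript length moved with the difference between the groups across the table. The median log2 fold change was -0.05 in class 1 of 4 equal length classes (longest transcript up to 1859 bases), 0.03 in class 2, 0.10 in class 3 and 0.24 in class 4 (4550 bases or more). Among the genes that rose, Tgfbr1, Smad2 and Skil have longest transcripts of 5756, 8089 and 6717 bases and belong to class 4. Smad3 and Tgfbr2 belong to it as well, with 5090 and 8092 bases, and fell. LPS replicate 1, which had the highest Skil and Tgfbr1 levels of its group, also differed from the other LPS libraries by length, with a median difference of 0.129 on the log2 scale in class 4 and of -0.006 in class 1. The part of transcript length in these results was not tested.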

How the data were processed

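RNA sequencing of 8 J774A.1 libraries (4 with LPS, 4 with LPS + UDCA, 24 h) was analysed from a table of TPM per gene that the authors deposited, with 1 column per library and 2 decimals. The unit was inferred from the column totals, which were similar but not equal. The submitters' processing notes name Bowtie 0.12.2 and the builds mm10 and GRCm38, and the counting program is not given in the sources used here. A gain or loss of one gene in TPM shifts the share left for the others. Groups follow the sample labels, and no library pair held identical values.

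Genes had to average 1 TPM or more over the 8 libraries, which left 11796, and their log2(TPM + 1) was fitted with limma 3.58.1 in R 4.3.3 (lmFit, then eBayes with a mean-variance trend), with Benjamini-Hochberg adjustment over all of them. Fold changes on this scale understate those of genes with low TPM. Calls used an FDR under 0.05, alone or with a 2-fold change. An exact permutation test of the group means (SciPy 1.17.1, 2-sided, 70 arrangements, smallest p 0.029) was added for each of the 10 genes, unadjusted. The procedure was tested on simulated data. The genes, lists and tests were chosen with earlier results of these data known. Named were the 10 genes, the genes of each pathway list past both thresholds and, where a list had none, its most abundant gene; Tgfb2, Tgfb3, Furin, Itgb5, Lrrc32, Itgb6, Itgb8, Map3k7, Ccn2, Cdkn2b and the marker Mertk fall outside this rule and were named after their values were seen. The sum of Smad2 and Smad3 and the ratio of Tgfb1 to Nrros were also added then. Ctgf was matched under its present symbol Ccn2. Positions, transcript lengths and overlaps are from GENCODE M21 (GRCm38), and promoter windows from RefSeq. At most 1.79% of the 31-base words of any of the 10 genes occur in another gene, and the only annotated overlap is a pseudogene in Smad4 that touches no exon of it. Alternatives covered the pseudocount, the filter, the scaling, the variance trend, the replicate number as a block and each library left out. Figures were drawn with matplotlib 3.10.9.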

Additional observations from a re-analysis of the deposited data

Results flagged for a closer look

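Libraries far from the rest of their group were sought with Dixon's ratio, the distance of an extreme value from the next one as a share of the full spread of 4 values, at its 95% critical value. Of 41 such groups, over the 10 genes and the other pathway genes past both thresholds, 5 passed, where chance gives about 1 in 20. LPS replicate 2 was lowest for Smad2 (20.97 TPM, ratio 0.904) and for Smad3 (5.34 TPM, ratio 0.900), although the SD of Smad3 over the 4 LPS libraries was only 0.0971 TPM. LPS + UDCA replicate 2 was highest for Nrros (14.37 TPM, ratio 0.943) and for Tgfbi (0.15 TPM, ratio 0.867), and LPS replicate 3 was lowest for Traf6 (3.57 TPM, ratio 0.842).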

How the results depend on the processing

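Tgfb1, Tgfbr1, Tgfbr2, Smad2, Smad3, Smad4 and Skil kept their direction and an FDR under 0.05 in all 14 alternatives, with adjusted p-values from limma of at most 0.0048. The difference of Tgif1 was -0.04 with median-of-ratios scaling, which moved the median of all genes tested from 0.08 to -0.02, and it passed the test with quantile normalization alone. The counts past both thresholds rested on genes near 2-fold. With a pseudocount of 0.1 TPM, 2 genes were higher (Tgfbr1 at 1.23 and Skil at 1.10), against 0 with 1 TPM, and 2 were lower (Tgfb1 and Smad3 at -1.18), against 1. Smad3 also passed with median-of-ratios scaling (-1.02) and quantile normalization (-1.04), which gave 2 lower genes each. With 1 library left out, 0 to 1 genes were higher, Skil passing without LPS replicate 1 or LPS + UDCA replicate 1, 2 or 3, and 1 to 2 were lower, Smad3 passing without LPS + UDCA replicate 2. The counts of other pathway genes stayed within 1.5 times their value in every alternative. The groups share replicate numbers. Deviations of same-numbered libraries from the group means correlated across genes by 0.12, 0.12, -0.035 and 0.15 in replicates 1 to 4. Other pairs ran from -0.14 to 0.16. The values of replicates 1, 2 and 4 lay above all other pairs except LPS replicate 1 with LPS + UDCA replicate 3 (0.16). These weak correlations do not settle whether the numbers mark pairs, and the main fit did not take them as pairs. With the replicate block, 4 of the 10 genes were higher and 3 lower, as without it. No counting error could be given, since TPM keeps no depth, and this limits most what can be said of Smad7 and Tgfbi.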
